A study of Mus musculus with 6 samples.

Results

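The tripartite motif (TRIM) family was examined in primary microglia (PM), the resident macrophages of the brain, that had been exposed to GSK-J4 with or without lipopolysaccharide (LPS). Members were taken as every gene symbol of the count tables that starts with Trim and continues with a digit, which gave 67 of 24411 genes. Trim5, Trim12b and Trim30c are not among the symbols of these tables. Of the 67, 31 passed the filter on low counts and were tested, and 36 did not.

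TRIM proteins carry a RING domain, 1 or 2 B-boxes and a coiled coil, followed by a C-terminal part that differs between subgroups. Most act as E3 ubiquitin ligases: the RING brings a ubiquitin-loaded E2 enzyme to a substrate that the C-terminal part often selects. In macrophages the family is known for adding ubiquitin chains to nucleic acid sensors, adaptors and kinases of the interferon and NF-kB pathways, and several members are interferon-stimulated genes. LPS, a component of the outer membrane of Gram-negative bacteria, is sensed by TLR4, which signals through MyD88 and TRIF.

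PM were grown out of mixed glia from the pooled brains of neonatal ICR mice, so the cells of each library came from many animals. In the GSK-J4 group, 3 libraries were made from PM given GSK-J4 (10 μM). In the LPS + GSK-J4 group, 3 libraries were made from PM given LPS (10 ng/ml) and GSK-J4 (10 μM), and both groups were compared at 4 h. GSK-J4 is a cell-permeable inhibitor of the H3K27 demethylases JMJD3 and UTX. Since both groups received GSK-J4, each difference is the response to LPS in its presence, and neither the effect of the inhibitor nor its interaction with LPS can be read from it. Untreated and LPS-only PM were not analysed here. The study calls its PM samples independent, but the labels do not tie the libraries to separate cultures, and p-values measure only the spread between these libraries.

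Fragments counted on genes numbered 2597505 to 3472716 per library, and 3 counts in a library correspond to 0.673 to 1.24 CPM (counts scaled to a common library size) after scaling with TMM factors. The 45S ribosomal RNA gene Rn45s took 22.2 to 32.4% of these counts in the GSK-J4 libraries and 45.8 to 48.1% in the LPS + GSK-J4 libraries. Without Rn45s, Mir6236 and Lars2, 1499693 to 2443344 and 1374377 to 1444886 counts were left. All 12 microglial markers were detected, and their summed level was 3795 to 3869 CPM with GSK-J4 alone against 3082 to 3126 CPM with LPS added. Of the 12, 4 were called lower, beside 9.91% of all tested genes. Markers of other glia and of neurons were present at lower levels and higher with LPS. Summed astrocyte markers went from between 60.2 and 63.4 CPM with GSK-J4 alone to between 144 and 175 CPM, oligodendrocyte-lineage markers from between 216 and 250 CPM to between 394 and 448 CPM, and neuronal markers from between 26.2 and 32.3 CPM to between 59.5 and 75.7 CPM. In these lists 4 of 8, 5 of 8 and 3 of 3 tested markers were called higher, beside 13.7% of all tested genes. No marker was at 0 in all libraries. Fibroblast markers were spread over 80.1 to 281 and 138 to 427 CPM. In bulk libraries, fewer cells of a type and less RNA per cell cannot be told apart, and the part of these other cells in the TRIM values was not tested.

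With LPS, 8 TRIM members rose and no member passed the test in the other direction. The 8 were Trim13, Trim25, Trim21, Trim2, Trim56, Trim30a, Trim8 and Trim35, and their fold changes ran from 6.67 for Trim13 to 1.28 for Trim35. A gene was called where edgeR's quasi-likelihood test gave an adjusted p of at most 0.05 over 10133 genes. The 8 were 25.8% of the tested members, and 13.7% of all tested genes were called higher under this rule. At the same rule 9.91% of all tested genes were called lower, against 0 of the 31 members. At an unadjusted p under 0.05, 3 members were lower (Trim33, Trim14 and Trim23), where the share over all genes was 15.5%. DESeq2's Wald test called 5 members higher and 0 lower. Under the thresholds of the study, which ask for an adjusted p no higher than 0.01 together with a log2 change of 1.5 or more in size, Trim13 and Trim25 were up-regulated and no member was down-regulated. Over all tested genes the corresponding shares were 2.95% higher and 0.809% lower.

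The direction was the same for most tested members, 24 with a positive and 7 with a negative log2 fold change. No sign changed under the other scalings, and with no filter on low counts those of Trim59 and Trim27, both near 0, turned negative. Their median log2 fold change was 0.32, against a median of 0.00 over all tested genes. In 14 members all 3 LPS + GSK-J4 libraries lay above all 3 GSK-J4 libraries, and in 2 members, Trim33 and Trim23, all lay below. Among all tested genes 19.8% were separated upwards and 18.4% downwards. Summed over the 67 members, the level was 664 to 707 CPM in the GSK-J4 libraries and 840 to 943 CPM in the LPS + GSK-J4 libraries. Of the difference of 201 CPM between the mean sums, 154 CPM came from the 8 called members and 46.8 CPM from all the others. This split is a description only, since the 8 were called for being higher in the same libraries.

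**Figure D1:**
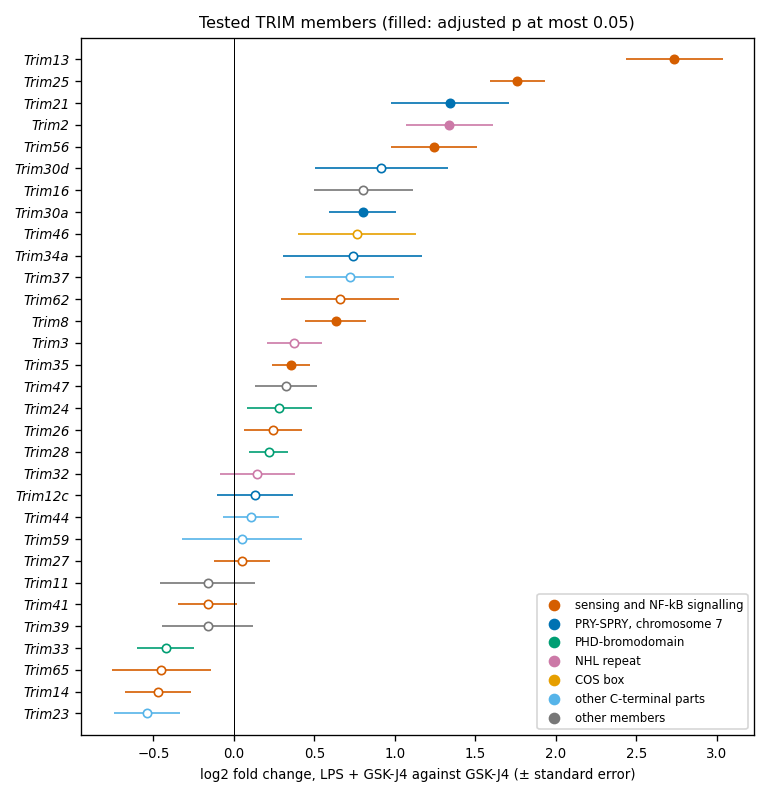
Log2 fold change of LPS + GSK-J4 against GSK-J4 for the 31 tested TRIM members, with bars of 1 standard error. Colours mark the groups of members and filled points an adjusted p of at most 0.05. The 8 filled points lie between 0.35 and 2.74, and the lowest open point, Trim23, lies at -0.54.

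The first group holds 15 members known to act on nucleic acid sensors, their adaptors or NF-kB and interferon regulatory factor signalling. It is a written list, chosen with earlier results of these data known, and does not hold every member with such a role. Trim30a, which limits NF-kB activation, was placed in the second group. Of these, 11 were tested and 5 rose (Trim13, Trim25, Trim56, Trim8 and Trim35), and 3 of the others had a negative sign. The 5 were 45.5% of those tested, beside 13.7% of all tested genes called higher. The median log2 fold change of the 11 was 0.35, and the summed level of the group was 280 to 308 CPM with GSK-J4 alone against 393 to 465 CPM with LPS added.

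Trim25 adds lysine-63-linked ubiquitin to the RNA sensor RIG-I and works with the antiviral protein ZAP. Its gene lies on the plus strand of chromosome 11 (mm10, 88999376 to 89020293). Levels were 19.6, 20.4 and 17.97 CPM in the GSK-J4 libraries and 64.8, 55.3 and 78.0 CPM in the LPS + GSK-J4 libraries. The lowest library with LPS stood well above the highest without it. The group means were 19.3 ± 1.25 and 66.1 ± 11.4 CPM (SD, n = 3), and the log2 fold change was 1.76 ± 0.17 (standard error) (edgeR, adjusted p = 1.36e-06). The 250 bases before its RefSeq start (GRCm38.p6, chr11:88999153-88999402, plus strand) are shown because this member had the smallest adjusted p of the family. Capitals mark matches to a loose NF-kB (kB) pattern of GG, 2 purines, any 2 bases, 2 pyrimidines and CC:
Trim25: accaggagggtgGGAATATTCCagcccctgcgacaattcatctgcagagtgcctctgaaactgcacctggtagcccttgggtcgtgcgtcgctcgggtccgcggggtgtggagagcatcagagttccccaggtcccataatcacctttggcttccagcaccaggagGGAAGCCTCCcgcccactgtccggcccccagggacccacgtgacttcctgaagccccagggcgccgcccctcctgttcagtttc

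Trim13, which is anchored in the endoplasmic reticulum membrane and takes part in the degradation of proteins there, showed the largest fold change of the family. It lies on the plus strand of chromosome 14 (61598247 to 61605946). Its levels rested on few reads, 17, 10 and 5 counts in the GSK-J4 libraries and 54, 50 and 39 counts in the LPS + GSK-J4 libraries. In CPM these were 4.01, 2.24 and 1.83 against 21.1, 19.1 and 16.1, so the groups were far apart and the GSK-J4 level was only a few times that of 3 counts. Means of 2.70 ± 1.16 and 18.8 ± 2.501 CPM gave a log2 fold change of 2.74 with a standard error of 0.30 (edgeR, adjusted p = 6.24e-06). The noncoding gene Dleu2 overlaps Trim13 on the opposite strand, and only reverse-strand counts were used.

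Trim56, which acts on the STING pathway of DNA sensing, lies on the minus strand of chromosome 5 (137105644 to 137116209). It measured 6.84, 4.94 and 8.80 CPM without LPS and 14.1, 14.5 and 19.0 CPM with it. The groups did not overlap, and the third library was the highest in each. The change was 1.24 on the log2 scale, with a standard error of 0.27 (edgeR, adjusted p = 0.00286), from 6.86 ± 1.93 to 15.8 ± 2.73 CPM.

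Windows of 30 bases around the kB matches of Trim13 and Trim56 are given with those of Trim25, since these 3 are the called members with such a match. Capitals mark the match, positions are of GRCm38.p6, and each line reads along the strand of the gene.
Trim13 (chr14:61598115-61598144, plus strand): gacttgtcttGGAGCCCTCCcccctccccc
Trim13 (chr14:61598212-61598241, plus strand): gccattggatGGAGGCCCCCactcctttgt
Trim25 (chr11:88999155-88999184, plus strand): caggagggtgGGAATATTCCagcccctgcg
Trim25 (chr11:88999309-88999338, plus strand): gcaccaggagGGAAGCCTCCcgcccactgt
Trim56 (chr5:137116291-137116320, minus strand): cagaggggagGGAGGGTTCCagggtggagt
The first bases of these matches lie at positions -101 and -4 of Trim13, -238 and -84 of Trim25 and -103 of Trim56, counted from the RefSeq start. Trim13 had another RefSeq start further along, which had no kB match. Among the members with a RefSeq promoter, 8 had a kB match and 5 of these were tested. All 5 had a positive log2 fold change and Trim13, Trim25 and Trim56 were called, while Trim46 and Trim28 were not. For comparison, 13.7% of all tested genes were called higher. Over all 27025 genes with a promoter in the table, 12.6% had a match, so the motif by itself is common.

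Trim8, which adds ubiquitin to the kinase TAK1 and destabilizes SOCS1, lies on the plus strand of chromosome 19 (46501702 to 46516848). It measured 37.7, 36.6 and 48.8 CPM without LPS and 51.9, 54.6 and 83.0 CPM with it. The groups were close, with 1 library of each well above the other two. Its log2 fold change was 0.63, with a standard error of 0.19 (edgeR, adjusted p = 0.0223), from 41.0 ± 6.72 to 63.2 ± 17.2 CPM. Without the third LPS + GSK-J4 library the log2 fold change was 0.39 (adjusted p = 0.0715), and it also missed the threshold without the first or the second GSK-J4 library and in DESeq2, at adjusted p of 0.0844, 0.1002 and 0.0522.

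Trim35, a regulator of IRF7 stability, lies on the plus strand of chromosome 14 (66297031 to 66311424). It was abundant in every library, at 122.7, 112.0 and 110.0 CPM without LPS and 142.8, 149.6 and 148.2 CPM with it. The spread within groups was small, 114.9 ± 6.82 and 146.9 ± 3.57 CPM, and the groups did not overlap. Its log2 fold change was 0.35, with a standard error of 0.12 (edgeR, adjusted p = 0.0385). This call was lost under 8 of 15 alternatives, with an adjusted p of up to 0.163.

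The other tested members of this group did not pass. Trim62, which acts on the adaptor CARD9, had a log2 fold change of 0.66 and overlapping groups. Trim26, which acts on IRF3, had 0.25, Trim27 had 0.05 and Trim41 had -0.16. Trim65, a ligase for the sensor MDA5, had -0.45, with 9.20, 8.98 and 9.53 CPM without LPS and 7.03, 3.82 and 9.50 CPM with it. Trim14, an adaptor of the MAVS pathway that lacks a RING domain, had -0.47 (edgeR, adjusted p = 0.109), with 26.9, 21.3 and 25.3 CPM against 21.9, 15.3 and 15.7 CPM. In the GENCODE annotation Trim65 overlaps Trim47 on the same strand. Whether fragments in the shared stretch were counted is not known, since the annotation used for counting is not given.

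**Figure D2:**
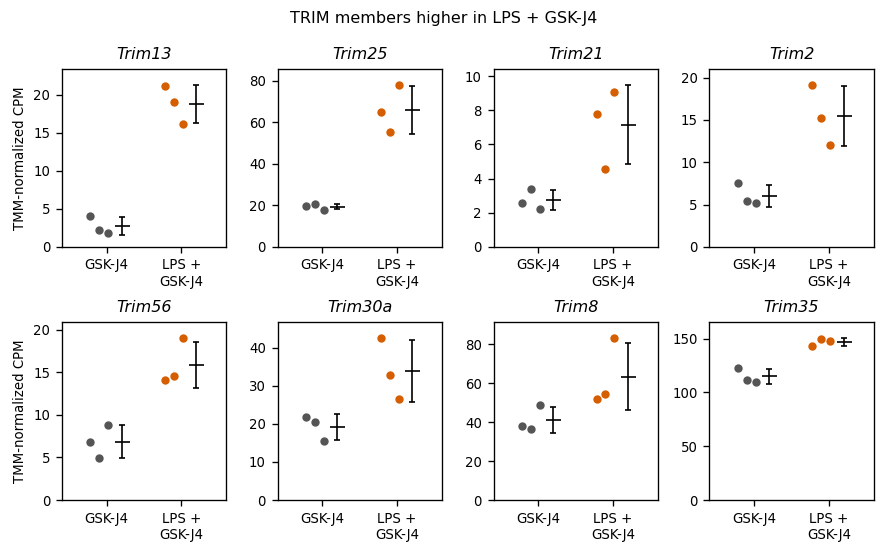
TMM-normalized CPM of the 8 called members in each library, 3 of GSK-J4 (grey) and 3 of LPS + GSK-J4 (orange), with the mean and SD of each group in black. Each vertical axis starts at 0 and has its own scale. All 8 panels are separated, from Trim13 (2.70 to 18.8 CPM on average) to Trim35 (114.9 to 146.9 CPM).

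The second group, named for the PRY-SPRY domain, holds 11 members that lie between 102557921 and 104535361 on chromosome 7. PRY-SPRY is the C-terminal module that binds substrates or viral capsids in this branch. Trim72, further along the chromosome, was not placed in the group. Copies of this group are close paralogs, and fragments that map equally well to several of them were not counted. Of the 11, 5 were tested, all 5 with a positive log2 fold change (median 0.80), and Trim21 and Trim30a rose. They were 40% of those tested, beside 13.7% of all tested genes called higher. The summed level was 40.3 to 50.5 CPM with GSK-J4 alone against 59.9 to 89.4 CPM with LPS added.

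Trim21, the cytosolic receptor for antibody-coated viruses, lies on the minus strand at 102557921 to 102565486. It had 11, 15 and 6 counts without LPS and 20, 12 and 22 counts with it, or 2.60, 3.37 and 2.20 CPM against 7.81, 4.58 and 9.08 CPM. The groups did not overlap, but the second library with LPS was close to the highest without it. The log2 fold change was 1.34 with a standard error of 0.37 (edgeR, adjusted p = 0.0141), from 2.72 ± 0.594 to 7.16 ± 2.32 CPM. Without replicate 3 of both groups it was 1.05 (adjusted p = 0.0821), and the adjusted p was 0.0505 without the first GSK-J4 library and 0.0765 in DESeq2.

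Trim30a, which limits NF-kB activation by lowering TAB2 and TAB3, was the most abundant of the 11 and lies on the minus strand at 104409025 to 104465193. It measured 21.9, 20.4 and 15.4 CPM without LPS and 42.5, 32.8 and 26.4 CPM with it. All 3 libraries with LPS lay above those without it, the lowest of them by a few CPM. The log2 fold change was 0.80 with a standard error of 0.21 (edgeR, adjusted p = 0.0105), from 19.3 ± 3.42 to 33.9 ± 8.11 CPM. Without the first LPS + GSK-J4 library it was 0.60 (adjusted p = 0.0608).

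Its neighbour Trim30d had a log2 fold change of 0.92 but few reads, with 2.83, 3.59 and 1.47 CPM against 7.42, 4.96 and 3.30 CPM, and the groups overlapped (edgeR, adjusted p = 0.128). Trim34a had 0.74 (adjusted p = 0.245), and Trim12c, at 14.9, 13.0 and 14.3 CPM against 20.3, 14.5 and 11.1 CPM, had 0.13. The other 6 did not pass the filter. Trim34b had 4, 7 and 3 counts without LPS and 9, 10 and 7 with it, while Trim68 ran the other way with 10, 26 and 12 counts against 5, 4 and 6. Trim12a and the pseudogene Trim30e-ps1 had no count in any library.

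**Figure D3:**
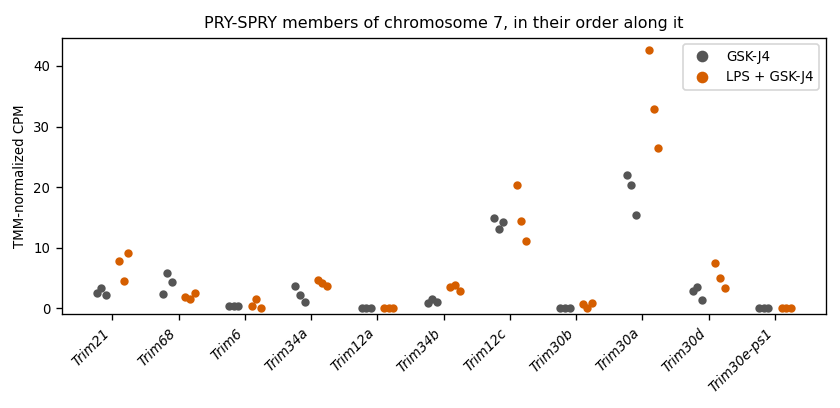
TMM-normalized CPM of the 11 members of the chromosome 7 PRY-SPRY group in each of the 6 libraries (GSK-J4 grey, LPS + GSK-J4 orange), placed in their order along the chromosome. Trim30a is the highest and separated, Trim12c is next and overlaps between groups, and Trim12a and Trim30e-ps1 are at 0.

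A Trim30a promoter is shown because a short motif in it recurs in other members of this group. The core of the interferon-stimulated response element (ISRE), GAAA, any 2 bases and GAAA on either strand, which interferon regulatory factors and the ISGF3 complex recognize, was looked for from 250 bases before to 50 bases after each RefSeq start. A RefSeq promoter was matched for 51 members, 23 of them tested. The core was found in 8 members, 6 of them in the chromosome 7 group (Trim21, Trim30a, Trim30d, Trim34a, Trim12a and Trim12c) and the others Trim26 and Trim2. Over all 27025 genes with a promoter, 3.99% had a match. The 250 bases before the first Trim30a start (chr7:104465194-104465443, minus strand) read:
Trim30a: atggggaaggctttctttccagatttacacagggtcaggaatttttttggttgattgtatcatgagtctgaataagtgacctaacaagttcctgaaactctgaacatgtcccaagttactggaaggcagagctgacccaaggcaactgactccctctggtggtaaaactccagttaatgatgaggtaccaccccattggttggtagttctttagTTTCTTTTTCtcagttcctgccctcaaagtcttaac

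The 30-base windows around the cores, with the core in capitals and reading along the strand of the gene, are set together for comparison, 1 window for each member. Second windows of Trim21 and Trim26, which overlap those given, and of Trim30a, at its other start, are not printed.
Trim21 (chr7:102565450-102565479, minus strand): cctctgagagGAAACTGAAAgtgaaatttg
Trim30a (chr7:104465210-104465239, minus strand): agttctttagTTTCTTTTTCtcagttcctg
Trim30d (chr7:104507871-104507900, minus strand): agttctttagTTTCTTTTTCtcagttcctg
Trim34a (chr7:104244457-104244486, plus strand): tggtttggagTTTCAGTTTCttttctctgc
Trim12c (chr7:104353359-104353388, minus strand): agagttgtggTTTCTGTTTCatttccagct
Trim12a (chr7:104315466-104315495, minus strand): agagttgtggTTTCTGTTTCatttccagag
Trim26 (chr17:36836976-36837005, plus strand): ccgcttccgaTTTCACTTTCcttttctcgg
Trim2 (chr3:84212791-84212820, minus strand): tcagctttggTTTCCTTTTCtctaagacag
The windows printed for Trim30a and Trim30d are identical, and those of Trim12a and Trim12c differ only in their last bases, so these matches are not independent of each other. Trim2 had the core at 1 of its 5 starts, with its first base at position 29 after that start. The 7 tested members with a core all had a positive log2 fold change with a median of 0.80, and 3 of them rose (Trim21, Trim2 and Trim30a). Of the 16 tested members with a promoter and no core, 3 also rose, and the median of the 16 was 0.25. The share called higher over all tested genes was 13.7%. The GAS motif (TTC, any 3 bases and GAA), found in 9.55% of all genes with a promoter, was present in 5 members, of which only Trim46 was tested. A match describes these letters and not binding.

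Among the members with NHL repeats, which bind RNA or other proteins, 3 of 4 were tested and Trim2 rose. Trim2 is known from neurons, where it adds ubiquitin to the neurofilament light chain, and lies on the minus strand of chromosome 3 (84160439 to 84306877). It measured 7.55, 5.39 and 5.13 CPM without LPS and 19.1, 15.3 and 11.98 CPM with it, so every library with LPS was higher. This was a log2 fold change of 1.34 with a standard error of 0.27 (edgeR, adjusted p = 0.00174), from 6.02 ± 1.33 to 15.5 ± 3.58 CPM. The neuronal markers Dcx, Map2 and Tubb3, the 3 tested of 7, had log2 fold changes of 1.30, 1.07 and 1.38 in the same libraries. The other 4 were near or below the level of 3 counts, with means without and with LPS of 0.347 and 0.384 CPM for the neurofilament light chain gene Nefl, 0.0786 and 1.07 CPM for Snap25, 0.520 and 0.257 CPM for Rbfox3 and 0.590 and 0.138 CPM for Syt1. Their part in the Trim2 value was not tested. Trim3 had 22.4, 26.0 and 24.2 CPM against 30.1, 30.1 and 34.3 CPM, separated but not called (log2 fold change 0.38, edgeR, adjusted p = 0.128), and Trim32 had 0.15.

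Members of the COS-box group bind microtubules and are best known from neurons and muscle. Only Trim46, which organizes microtubules at the start of the axon, was tested of 8. It measured 2.60, 2.47 and 2.57 CPM without LPS and 4.29, 4.20 and 4.54 CPM with it. These values rested on 11, 11 and 7 counts without LPS and 11, 11 and 11 counts with it. Replicates 1 and 2 thus had equal counts in both groups and differed in CPM only through the scaling of the libraries. The groups did not overlap in CPM, but at these counts the log2 fold change of 0.76 did not pass (edgeR, adjusted p = 0.153). Trim9, a ligase of neuronal axon branching, had 6, 5 and 2 counts without LPS and 18, 7 and 6 counts with it and fell below the filter. With no filter its log2 fold change was 1.76 (edgeR, adjusted p = 0.0123), and in DESeq2 it was 1.82 (adjusted p = 0.0982). Whether the higher neuronal markers given above bear on Trim46 and Trim9 was not tested. The muscle members Trim54, Trim55 and Trim63 had at most 3 counts in any library.

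The transcriptional members of the TIF1 group carry a PHD finger and a bromodomain. Trim28 (KAP1), the corepressor of KRAB zinc finger proteins, lies on the plus strand of chromosome 7 (12999114 to 13031035). It measured 130.0, 114.5 and 130.2 CPM without LPS and 138.2, 143.9 and 152.8 CPM with it. The groups did not overlap, but the log2 fold change was 0.22 with a standard error of 0.12 (edgeR, adjusted p = 0.218). Trim24 had 0.28. Trim33, a regulator of SMAD4, had 29.3, 26.5 and 33.4 CPM against 21.5, 21.0 and 23.5 CPM. All 3 libraries with LPS were lower, at a log2 fold change of -0.42 that missed the threshold (edgeR, adjusted p = 0.101). None of the 3 was called, and Trim66 had 0, 0 and 0 counts against 1, 1 and 2.

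The members with other C-terminal parts were not called either. Trim23, whose C-terminus is an ARF-like GTPase, had the lowest log2 fold change of the family, -0.54 (edgeR, adjusted p = 0.0687). It measured 17.9, 19.3 and 18.3 CPM without LPS and 12.5, 14.5 and 11.1 CPM with it, with no overlap. With the replicate number as a block, Trim23 and Trim14 passed the threshold, at adjusted p of 0.0481 and 0.0472, the only lower calls of the family under that model. Trim37, which carries a MATH domain, had 0.72 (edgeR, adjusted p = 0.0715), and all 3 of its libraries with LPS were higher. Trim44 had 0.10 and the membrane-anchored Trim59 had 0.05. Of the remaining tested members, Trim16, which lacks a RING domain and responds to damaged lysosomes, had 0.80 (edgeR, adjusted p = 0.0722), Trim47 had 0.32, and Trim11 and Trim39 both had -0.16.

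Levels can be compared between members only per length, in CPM per kb of merged GENCODE exons. The annotation used for counting is not given and may differ from these exons. Trim28 was highest, at 30.03 ± 2.17 CPM per kb without LPS and 34.9 ± 1.77 with it, followed by Trim35 at 24.9 ± 1.48 and 31.8 ± 0.773. In GSK-J4 these neighbours differed by more than their SD, while Trim8 (11.1 ± 1.81) and Trim47 (11.2 ± 2.37), the next pair, did not. Trim47 had 25.0, 29.4 and 37.8 CPM without LPS and 34.3, 33.6 and 46.3 CPM with it, overlapping groups with a log2 fold change of 0.32 and a standard error of 0.19 (edgeR, adjusted p = 0.254). Trim25 reached 11.5 ± 1.98 CPM per kb with LPS from 3.36 ± 0.217, and Trim13 reached 11.4 ± 1.52 from 1.63 ± 0.701, levels within 1 SD of each other. Trim30a followed at 8.25 ± 1.97 from 4.68 ± 0.833. Trim2 was the lowest tested member, at 0.305 and 0.782 CPM per kb, over an exon union of 19.8 kb.

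**Figure D4:**
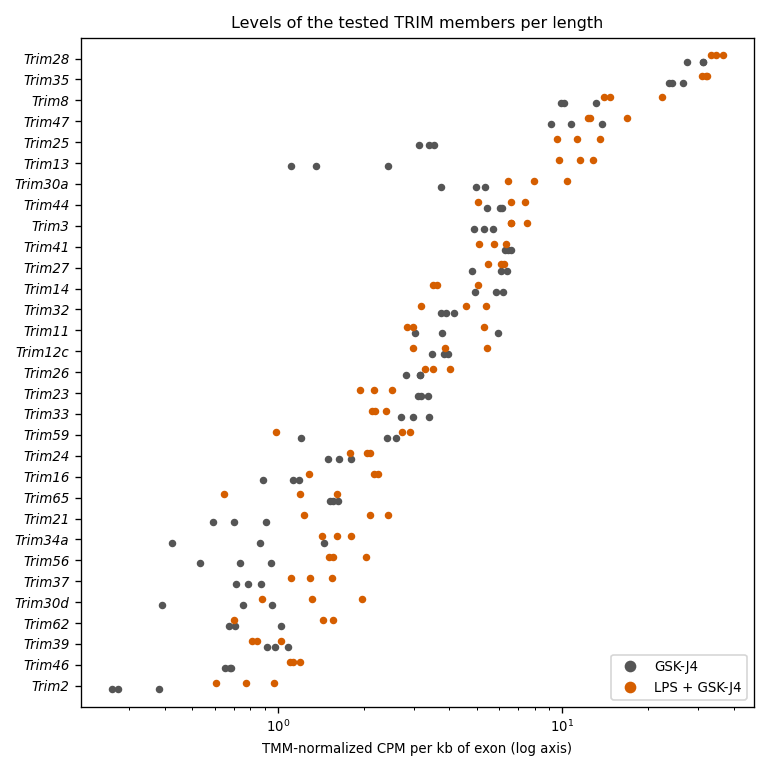
TMM-normalized CPM per kb of exon on a log axis for the 31 tested members, ordered by their mean over all libraries, with 3 points for GSK-J4 (grey) and 3 for LPS + GSK-J4 (orange). Trim28 and Trim35 are at the top, and the orange points of Trim25 and Trim13 stand far to the right of the grey ones.

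The 36 members below the filter add little to the family's level. Of them, 12 had no count in any library (Trim10, Trim12a, Trim15, Trim30e-ps1, Trim38, Trim42, Trim50, Trim52, Trim58, Trim60, Trim61 and Trim75), which allows up to 1.24 CPM in the shallowest library. This limit does not cover fragments that were left uncounted. Trim12a and Trim30e-ps1 may lose fragments shared with their paralogs, and Trim60 and Trim61 overlap each other on the same strand in the GENCODE annotation. A further 16 had 1 to 10 counts over all libraries, and 8 had more than 10. The highest, Trim68, had 63 counts in all and averaged 4.20 CPM without LPS. There were 7 members with no count in GSK-J4 and some with LPS. Trim30b (2, 0 and 2 counts), Trim54 (2, 2 and 0), Trim66 (1, 1 and 2) and Trim72 (0, 3 and 1) had up to 3 counts in a library, and Trim43a, Trim43c and Trim80 had 1 count in 1 library. Both groups are then at or under the limit of 3 counts per library, and no fold is given for these 7.

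Genes of the same architecture under other symbols were looked at beside the family. Of 7 such genes, Pml, the organizer of nuclear bodies, and Mid2 were tested. Their log2 fold changes were 0.54 and 1.08 (edgeR, adjusted p = 0.0968 and 0.126). Mefv, which encodes pyrin, averaged 0.122 CPM without LPS and 1.47 CPM with it, below the filter.

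Sensors, adaptors, kinases, interferon regulatory factors and other genes of the pathways on which these ligases are known to act were compared next. Of 23 such genes 22 were tested, and 7 rose while 2 fell, with a median log2 fold change of 0.09. The 7 were 31.8% of those tested, where 13.7% of all tested genes were called higher, and 2 of 22 is close to the 9.91% of all tested genes called lower. Ifih1, which encodes the RNA sensor MDA5, averaged 11.9 ± 1.42 and 362.8 ± 6.82 CPM, and its log2 fold change was 4.91 (edgeR, adjusted p = 7.38e-13). Ddx58, which encodes the Trim25 substrate RIG-I, averaged 4.89 ± 0.481 and 9.53 ± 2.98 CPM, at a log2 fold change of 0.95 (adjusted p = 0.0361). The others that rose were Irf7 (1.37), Dhx58 (0.97), Myd88 (0.80), Ticam1, which encodes TRIF (0.74), and Zc3hav1, which encodes ZAP (0.61). Tab1, a partner of TAK1, fell by 0.83 on the log2 scale (edgeR, adjusted p = 0.00649), and the ligase gene Traf6 fell by 0.44 (adjusted p = 0.0405).

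E2 enzymes and related E2 genes of ubiquitin or ISG15 conjugation formed the last list. All 13 were tested, 4 (30.8%) rose and 0 fell, where 13.7% of all tested genes were called higher and 9.91% lower. None of the 13 was lower at an unadjusted p under 0.05, where the share over all genes was 15.5%. The 4 were Ube2e2 (log2 fold change 0.96), Ube2l6, the E2 of ISG15 conjugation (0.81), Ube2n, which builds lysine-63 chains (0.63), and Ube2e3 (0.63). Their adjusted p in edgeR lay between 0.0221 and 0.0379. DESeq2 called 0 of the 13, as did edgeR without the first GSK-J4 library. The calls of Trim13, Trim25, Trim2 and Trim56 held under every alternative that gave them a value.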

How the data were processed

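RNA-seq libraries of PM, 3 per group, were analysed; groups and replicate numbers come from the sample titles. The authors trimmed reads with Trimmomatic 0.33, aligned them to mm10 with STAR 2.5.1 and deposited raw counts per gene in unstranded, same-strand and reverse-strand columns. The annotation used for counting is not given in the sources used here. Reverse-strand counts were used (same-strand sums were 0.966 to 1.38% of same-strand and reverse-strand counts together).

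Counts were tested in R 4.3.3 with edgeR 4.0.16: TMM factors (1.05 to 1.31 in GSK-J4, 0.821 to 0.832 in LPS + GSK-J4), filterByExpr (minimum count 10, minimum total 15), the robust quasi-likelihood test without covariates, and Benjamini-Hochberg adjustment over 10133 genes. The common BCV (biological coefficient of variation) was 0.133. The script was tested on simulated data. Errors are SD over 3 libraries, and the smallest exact permutation p of 3 against 3 is 0.1. Standard errors were derived from the F statistic.

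Every member is accounted for. Full values are given for called members and the 5 highest per length; partner and marker genes come from written lists. The members and lists were chosen with earlier results of these data known. Positions are GENCODE M21 (mm10) and promoters RefSeq (GRCm38.p6). For 55 of 65 member starts, a stretch of the 50 bases after the start was found in a GENCODE transcript of the same gene. Start positions were not compared. Alternatives were unstranded counts, other size factors, removal of Rn45s, Mir6236 and Lars2, DESeq2 1.42.0, other filters, the replicate number as a block, each library left out and, added after seeing the data, replicate 3 of both groups left out.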

Additional observations from a re-analysis of the deposited data

Results flagged for a closer look

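Counts in the same-strand column, which the comparisons did not use, lay above the limit of 3 counts per library on average for 2 members. Trim12c, a PRY-SPRY member of chromosome 7, had a mean of 5 same-strand counts per library (6, 12 and 0 without LPS, 3, 7 and 2 with it). Trim41 had a mean of 3.67 (3, 5 and 5 without LPS, 2, 4 and 3 with it), and the gene Rack1 overlaps Trim41 on the opposite strand.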

How the results depend on the processing

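Of 457 values recomputed under 15 alternatives, 424 kept their direction and side of the threshold. The count of TRIM members higher was 5 in DESeq2 and 5 to 7 with a library left out (lowest without GSK-J4 replicate 1). At the thresholds of the study it was 1 with at least 10 counts in every sample, where Trim13 was not tested, and 2 to 3 with a library left out. The count lower was 0 to 1 with a library left out, Trim14 being called without LPS + GSK-J4 replicate 1. Signalling members higher numbered 3 in DESeq2 and 3 to 5 with a library left out (3 without GSK-J4 replicate 1 or 2). Chromosome 7 members higher numbered 1 in DESeq2, 1 with the stricter filter and 1 to 2 with a library left out (1 without GSK-J4 or LPS + GSK-J4 replicate 1, or without replicate 3 of both). E2 genes higher numbered 0 in DESeq2 and 0 to 2 with a library left out, under each of the 6. Trim16 passed with the stricter filter and without LPS + GSK-J4 replicate 1 (adjusted p = 0.0487 and 0.0299), and Trim37 with the stricter filter (0.0485).

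With the replicate number as a block, 8 members were higher and 2 lower (Trim14 and Trim23), and no other call on a member changed. Deviations of same-numbered libraries correlated at -0.0102, 0.117 and 0.295, and 3 of 6 libraries correlated best with their own number. The numbers were not taken to pair the libraries. Within each group, however, the third library stood apart. Chi-square per degree of freedom between GSK-J4 libraries was 2.12 for replicates 1 and 2, but 12.2 and 12.5 for pairs with replicate 3. For the libraries given LPS the values were 2.32 against 5.81 and 5.88. These values include Rn45s, which took 22.2, 22.3 and 32.4% of the counts in the GSK-J4 libraries. With LPS it took 48.1, 45.8 and 47.5%. The part of Rn45s in the chi-square values was not tested. Whether the third libraries of both groups belong together was not tested, and the block behind the lower calls of Trim14 and Trim23 takes them as a pair.

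The sign turned for 6 members near 0, none of them called. With a library, or replicate 3 of both groups, left out, log2 fold changes ran from -0.043 to 0.33 for Trim32, -0.13 to 0.33 for Trim12c, -0.024 to 0.25 for Trim44, -0.19 to 0.39 for Trim59, -0.077 to 0.12 for Trim27 and -0.49 to 0.11 for Trim11. With no filter Trim59 stood at -0.00105 and Trim27 at -0.0039. The cause of these changes was not tested. Low counts limit Trim13, Trim21, Trim30d, Trim34a and Trim46, and Rn45s reduced the usable depth most with LPS.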

Other observations

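The third library stood at the top or bottom of both groups for many tested members. It was the highest of both groups for 10 of the 31, among them Trim8, Trim56, Trim28, Trim47 and Trim11, and the lowest of both for 6 (Trim13, Trim2, Trim30a, Trim30d, Trim34a and Trim59). Over all 10133 tested genes these shares were 22.3% and 20.8%. For the first library they were 9.49% and 12%, and for the second 10.2% and 9.98%. The first library was the highest of both groups for 7 members, where the share over all genes was 9.49%. Trim11 measured 10.9, 13.5 and 21.3 CPM in GSK-J4 and 10.1, 10.7 and 19.0 CPM in LPS + GSK-J4, so its libraries differed more within a group than between the groups. Summed fibroblast markers were 281, 80.1 and 94.2 CPM in GSK-J4 and 138, 241 and 427 CPM in LPS + GSK-J4. These counts were taken after the values were seen.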
